A study of Mus musculus with 2 samples.

Results

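Mesodermal Progenitor cells were compared with Chondrocyte cells of E11.5 mouse embryos. The population names are those of the deposited cell table. Of 5678 annotated cells, 496 carried the first name and 296 the second, together 792 cells or 13.9%, and each name corresponded to a single cluster of the authors. All embryos were transgenic for EGFP driven by CAG, a promoter active in most tissues, linked to a DNA barcode and delivered with the piggyBac transposase. F0_8 and F0_9 were suspensions of a founder (F0) embryo each, in which the transgene can be mosaic, a single F1 embryo gave F1_1, and cells of 2 further F1 embryos had been mixed to give F1_mix, counted here as 1 sample. The suspensions were tagged with multiplexing oligos, pooled and captured in 1 droplet library, each was prepared once, and no embryo without the transgene was included.

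For each suspension, transcript counts (unique molecular identifiers, UMIs) were summed over the cells of each population, which gave 4 sums a side. Mesodermal Progenitor contributed 131, 96, 128 and 141 cells from F0_8, F0_9, F1_1 and F1_mix, and Chondrocyte contributed 88, 82, 56 and 70 cells in the same order. Chondrocyte cells therefore made up 40.2%, 46.1%, 30.4% and 33.2% of both populations (95% exact binomial intervals of 33.6 to 47.0%, 38.6 to 53.7%, 23.9 to 37.6% and 26.9 to 40.0%, which cover counting error only). The founders held the higher shares, but 2 suspensions a generation cannot give a permutation p under 0.05, so the shares were not tested. The 8 sums held 781151 to 2856745 gene UMIs, with a median of 18842 per Mesodermal Progenitor cell and 11653.5 per Chondrocyte cell. Mitochondrial genes took a median of 2.29% and 2.53% of these UMIs. Levels are given as counts per 1000000 gene UMIs (CPM) with the founders F0_8 and F0_9 first, then F1_1, then F1_mix, and positive log2 fold changes are higher in Mesodermal Progenitor. The clusters had been drawn on variable genes of these same cells. The adjusted p-values therefore describe how steady a difference was over the 4 suspensions. They are not independent evidence that the populations differ.

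In the embryo, limb buds and body wall arise from lateral plate mesoderm, while vertebrae and ribs arise from the sclerotome, the ventral part of the somite. Loose mesenchymal cells of either origin multiply, condense under the control of the transcription factor Sox9 and its partners Sox5 and Sox6, and then lay down type II collagen and aggrecan as cartilage. Proliferating cells switch on genes in 2 waves, one for DNA replication in S phase that is driven by E2F factors, and one for mitosis in G2/M that is driven through promoter elements named CCAAT and CHR (cell cycle genes homology region).

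Promoters of 5 cell cycle genes are shown first, since their motifs were counted over the windows of all genes. RefSeq promoter windows of GRCm38.p6 run from 250 bases before to 50 bases after a gene's start. Capitals mark CCAAT or its reverse complement ATTGG in all 5 sequences, TTTGAA or TTCAAA (CHR) in the 3 mitotic genes, and the E2F-type letters TTTGGCGC, TTTCGCGC, TTTCCCGC or TTTGCCGC on either strand in the 2 replication genes. They are the 3 G2/M list genes and the 2 S list genes with the highest fold change among those with 1 window and a match. In this choice 1 chromosome was left out. Kif11 (a spindle motor) is at chr19:37376132-37376431 on the plus strand, Top2a (topoisomerase that untangles sister chromatids) at chr11:99024140-99024439 on the minus strand, Ube2c (ubiquitin enzyme of the anaphase complex) at chr2:164769679-164769978 on the plus strand, Clspn (checkpoint adaptor at the replication fork) at chr4:126556730-126557029 on the plus strand and Pola1 (catalytic subunit of DNA polymerase alpha) at chrX:93632106-93632405 on the minus strand.
Kif11: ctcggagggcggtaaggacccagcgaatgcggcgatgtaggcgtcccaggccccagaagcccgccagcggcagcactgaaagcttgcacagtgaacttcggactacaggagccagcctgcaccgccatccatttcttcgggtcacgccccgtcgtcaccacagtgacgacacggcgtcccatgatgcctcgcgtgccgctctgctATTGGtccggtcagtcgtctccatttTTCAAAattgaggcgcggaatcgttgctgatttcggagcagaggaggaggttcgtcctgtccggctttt
Top2a: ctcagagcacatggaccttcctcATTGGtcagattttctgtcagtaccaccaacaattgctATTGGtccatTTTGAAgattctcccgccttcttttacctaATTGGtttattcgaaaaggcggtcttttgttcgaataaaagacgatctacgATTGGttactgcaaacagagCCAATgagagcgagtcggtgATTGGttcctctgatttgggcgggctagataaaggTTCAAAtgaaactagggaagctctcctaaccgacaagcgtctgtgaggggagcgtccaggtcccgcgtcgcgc
Ube2c: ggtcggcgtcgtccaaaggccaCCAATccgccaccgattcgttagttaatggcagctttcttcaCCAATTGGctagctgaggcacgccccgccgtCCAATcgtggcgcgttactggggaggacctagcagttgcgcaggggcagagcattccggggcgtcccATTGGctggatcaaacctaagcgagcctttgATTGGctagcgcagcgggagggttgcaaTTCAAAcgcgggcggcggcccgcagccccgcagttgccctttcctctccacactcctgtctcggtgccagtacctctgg
Clspn: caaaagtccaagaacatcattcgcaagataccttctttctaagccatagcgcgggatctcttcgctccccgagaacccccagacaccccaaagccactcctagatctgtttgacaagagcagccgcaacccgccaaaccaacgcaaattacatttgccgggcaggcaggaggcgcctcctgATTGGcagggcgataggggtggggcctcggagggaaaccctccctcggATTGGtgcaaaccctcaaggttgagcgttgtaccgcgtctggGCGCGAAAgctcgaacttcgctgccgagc
Pola1: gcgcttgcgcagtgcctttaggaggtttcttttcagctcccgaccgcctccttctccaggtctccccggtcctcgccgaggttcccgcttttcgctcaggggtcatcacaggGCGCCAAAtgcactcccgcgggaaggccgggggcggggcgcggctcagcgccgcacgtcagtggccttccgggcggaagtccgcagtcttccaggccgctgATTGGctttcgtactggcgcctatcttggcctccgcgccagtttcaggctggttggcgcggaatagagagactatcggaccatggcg

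In Kif11, Top2a and Ube2c a CHR match began 19, 23 and 29 bases before the start, with ATTGG further upstream. Of the 26 G2/M list genes, 23 had a window, and 18 of these 23 windows (78.3%) held the CHR letters. The same letters were in 17.9% of all 32851 windows and in 11.9% of those of the tested genes. The E2F-type letters were in 10 of 24 windows of the S list (41.7%) against 2.27% of all windows and 4.21% of those of the tested genes. CCAAT, with 5 letters, was in 82.6% of G2/M windows, 70.8% of S windows and 37.4% of all windows, and in 28.0% of the 25 windows of a list of matrix and adhesion genes, 44.0% of those of cartilage matrix genes and 44.1% of those of limb and lateral plate factors. Matches are letters in a window and were not tested as binding sites.

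**Figure D1:**
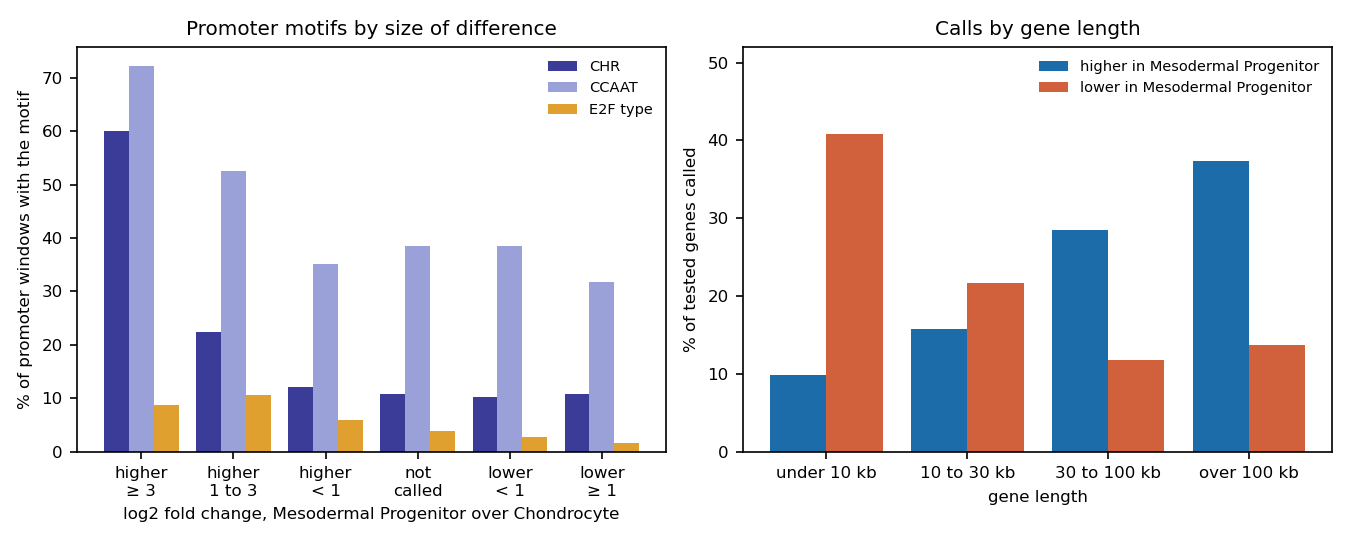
Left, percent of RefSeq promoter windows that hold CHR, CCAAT or E2F-type letters, by the size and direction of the log2 fold change of the gene; right, percent of tested genes called higher or lower in Mesodermal Progenitor, by the length of the gene in kilobases. CHR letters were in 60.0% of windows of genes higher by 3 or more log2 units and in 10.8% of those not called, and genes under 10 kb were called lower more often (40.8%) than higher (9.90%).

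Among genes called higher, the share of windows with CHR letters was largest at the largest differences. It was 60.0% of 115 windows for genes called higher by 3 or more log2 units, 22.4% for those higher by 1 to 3, 12.02% for those higher by under 1, and 10.8% for genes not called. Among genes called lower it was 10.2% for differences under 1 and 10.8% for those of 1 or more. E2F-type letters were in 8.70%, 10.7%, 5.95% and 3.82% of windows in the first 4 of these classes and in 1.66% of those lower by 1 or more.

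In total, 10673 genes could be tested, and 4638 of them (43.5%) passed an adjusted p of 0.05 (edgeR quasi-likelihood test with the suspension as a block), 2336 higher in Mesodermal Progenitor (21.9%) and 2302 lower (21.6%). Differences of at least 1 log2 unit were found for 614 of the former and 689 of the latter. For 2511 tested genes every Mesodermal Progenitor value lay above every Chondrocyte value, and for 1733 every one lay below. The median over all tested genes was -0.01. The count of calls was 2641 with DESeq2 and 2674 after each cell was thinned to 5000 UMIs.

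Mitotic genes were higher in Mesodermal Progenitor than in Chondrocyte. All 26 of 26 genes of the G2/M list passed the test and all were higher, beside 21.9% of all genes. Their median was 3.93, with a range from Ccnb2 (1.20) to Aurkb (5.90). Top2a stood at 844, 877, 740.0 and 801 CPM in Mesodermal Progenitor and at 15.9, 11.96, 25.6 and 25.3 CPM in Chondrocyte (log2 fold change 5.33 ± 0.14, SE, a 40.2-fold difference). Mki67, the gene of the proliferation antigen Ki-67, was at 412, 471, 428 and 417 against 23.4, 15.2, 38.4 and 32.2 CPM (3.94 ± 0.15). In both genes the lowest Mesodermal Progenitor value lay far above the highest Chondrocyte value.

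Of the 12 genes that led the fold changes at a mean of 50 CPM or more, 4 were on the G2/M list (Aurkb, Kif11, Top2a and Nusap1). Kif11 reached 160.1, 154, 144 and 140.0 CPM in Mesodermal Progenitor and 2.12, 4.35, 3.84 and 3.45 CPM in Chondrocyte. Esco2, an acetyltransferase that establishes sister chromatid cohesion, came first at 88.6, 87.4, 78.8 and 66.2 CPM, but only 2 UMIs in total were seen in Chondrocyte, so its ratio of 139 has a counting interval of 38.3 to 1148. The replication-dependent histone gene H1f5 was at 1488, 1594, 1091 and 1282 against 15.9, 16.3, 15.4 and 23.0 CPM (6.21 ± 0.11). The others were Cep55 (5.48) and Prc1 (5.23), which act in cytokinesis, Sgo2a (5.31), which guards centromeric cohesion, Aspm (5.17) of the spindle poles, Cdca2 (5.14) and the histone gene H2ac4 (5.39). Reads of replication-dependent histone genes can be shared among near-identical copies, so their levels are uncertain. The next gene by the same rule, Knl1, was at 4.99 against 5.12 for the last of the 12.

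S phase genes differed less. Of 26, 21 were higher and none was called lower, beside 21.9% and 21.6% of all genes, and the median was 0.97. The largest differences were those of E2f8 (3.65 ± 0.33), a repressor that closes the E2F wave, Exo1 (3.21 ± 0.21), Clspn (2.96 ± 0.18) and Cdc45 (2.78 ± 0.25). Among subunits of the replicative helicase, the Mcm genes given here differed less. Mcm2 was at 57.2, 58.5, 60.3 and 57.1 CPM against 70.1, 69.6, 69.1 and 63.3 CPM, which did not pass the test (-0.29 ± 0.12, edgeR adjusted p = 0.064) but passed without the replicate block and with equal numbers of cells, while Mcm3 did pass (0.43 ± 0.14), though not without F0_8 or F0_9 (0.34 and 0.30). Mcm6 and Mcm4 did not pass, at -0.06 and 0.16.

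Per cell, the difference in mitotic transcripts covered nearly the whole population. After each cell was thinned to 5000 UMIs (1 Mesodermal Progenitor and 2 Chondrocyte cells were too shallow), Mesodermal Progenitor cells held a median of 28 UMIs of the G2/M list and a 5th percentile of 9. Chondrocyte cells held a median of 1 and a 90th percentile of 9. At least 10 such UMIs were found in 468 of 495 Mesodermal Progenitor cells (94.5%, 95% interval 92.2 to 96.4%) and in 29 of 294 Chondrocyte cells (9.86%, 6.71 to 13.9%). The cut at 10 was set after the values were seen, and 38 and 14 cells lay between 8 and 11 UMIs. By suspension the shares were 92.3%, 94.8%, 95.3% and 95.7% against 6.98%, 7.32%, 16.1% and 11.4%, so the groups stood far apart in each. Before thinning, the list summed to 6079 to 7039 CPM in Mesodermal Progenitor and 455 to 854 CPM in Chondrocyte. In Gut Mesenchyme/Amniotic Mesoderm, the other large mesenchymal population of the table, it summed to 357 to 635 CPM with a median of 1 UMI per thinned cell, and in Myoblast/Cardiomyocyte the median was 9.

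**Figure D2:**
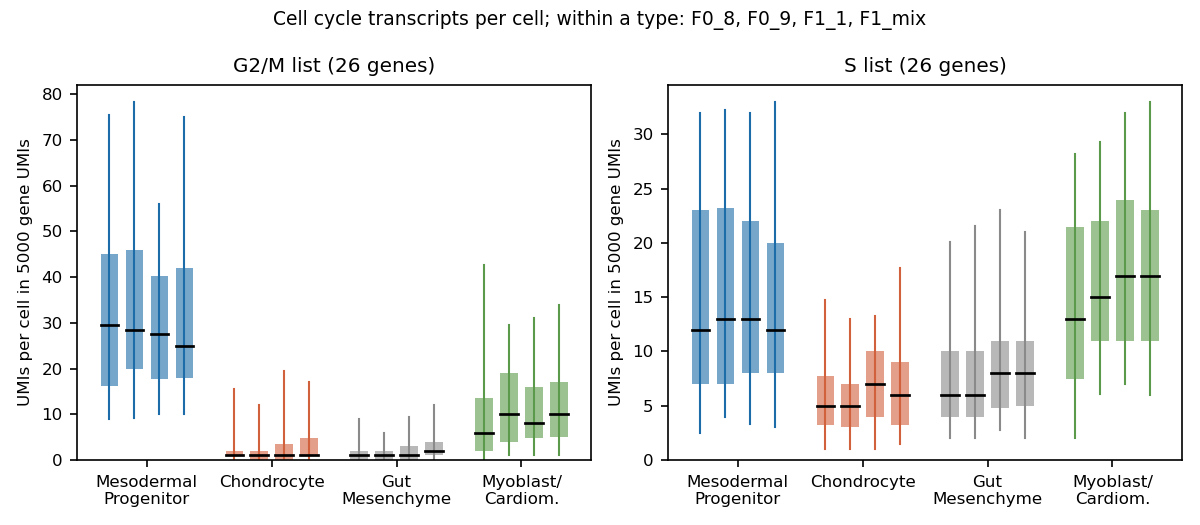
UMIs of the G2/M list (left) and the S list (right) per cell after thinning to 5000 gene UMIs, for 4 populations with F0_8, F0_9, F1_1 and F1_mix side by side; the line in each box is the median, the box the 25th to 75th percentile and the thin line the 5th to 95th percentile. Medians of the G2/M list lay at 25 to 29.5 in Mesodermal Progenitor and at 1 in Chondrocyte in every suspension, while those of the S list lay at 12 to 13 against 5 to 7.

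The 27 Mesodermal Progenitor cells under the cut carried 5564 CPM of S list transcripts, against 2856 CPM in the 468 above it. The 29 Chondrocyte cells at or above the cut were not matched to Mesodermal Progenitor cells in cycling transcripts. They held 1329 CPM of S list transcripts, against 1391 CPM in the other Chondrocyte cells. They held 5477 CPM of the matrix and adhesion list, against 7083 CPM in the other Chondrocyte cells and 3834 CPM in Mesodermal Progenitor cells at or above the cut. For limb and lateral plate factors they held 3896 CPM, against 5004 and 6622 CPM. The 4 suspensions held 6, 6, 9 and 8 such cells, with 3417, 5695, 5816 and 6474 CPM of the matrix list and 4095, 4920, 3104 and 4135 CPM of the limb list, so F0_8 lay below Mesodermal Progenitor for the first. These values are a description.

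Of 12 tested genes linked with leaving the cell cycle, 1 was higher and 4 were lower, beside 21.9% and 21.6% of all genes. Without F1_1, 3 were higher and 4 lower. Cdkn1c, which encodes the cyclin kinase inhibitor p57, was at 1031, 950.3, 757 and 899 CPM in Mesodermal Progenitor and 2277, 2023, 1526 and 1509 CPM in Chondrocyte (-1.06 ± 0.06). Btg2 (-0.86), Ccnd3 (-0.74) and Gadd45g (-0.67) were lower as well, but Gadd45g no longer passed without F0_8, F0_9 or F1_mix (-0.63 to -0.60). Cdkn1b, the p27 inhibitor, was higher at 40.6, 41.8, 39.0 and 37.8 against 21.2, 21.7, 19.2 and 24.2 CPM (0.82 ± 0.17). The other 7 did not pass.

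Textbook markers of cartilage and of limb mesenchyme were listed here to check the names. Sox9, the master regulator of chondrogenesis, was at 258, 251, 166 and 216 CPM in Mesodermal Progenitor and 308, 259, 132 and 234 CPM in Chondrocyte, overlapping groups that did not pass the test (-0.11 ± 0.09, edgeR adjusted p = 0.38). Col2a1, type II collagen, was lower in Mesodermal Progenitor (-0.30 ± 0.09), at 305, 239, 163 and 206 against 357, 352, 168 and 215 CPM. The ranges overlapped, although each suspension had the lower value in Mesodermal Progenitor. The call for Col2a1 was lost without F0_9 (-0.20), with DESeq2 (-0.30) and with equal numbers of cells (-0.06). Sox5 (0.69 ± 0.12) and Sox6 (0.92 ± 0.12) were higher in Mesodermal Progenitor, as was the sclerotome factor Pax1 at 58.9, 61.2, 40.9 and 62.0 against 35.03, 31.5, 8.96 and 3.45 CPM (1.46 ± 0.31). Acan, which encodes aggrecan, was at 1.05 to 8.29 against 0 to 8.49 CPM, and Nkx3-2 was too low to test.

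Of the 9 Chondrocyte markers, Col2a1, Col9a1 and Matn4 were higher in Chondrocyte than in Mesodermal Progenitor (Matn4 not without F0_8), and Sox5, Sox6 and Pax1 were lower. None of the 9 had its highest mean in Chondrocyte among the 16 populations. By the mean over suspensions, Sox9, Col2a1, Col9a1 and Matn4 ranked second in Chondrocyte, behind Gut Mesenchyme/Amniotic Mesoderm. Within suspensions, Gut Mesenchyme/Amniotic Mesoderm was above Chondrocyte in 3, 4, 2 and 2 of 4 for these genes in that order. Of the 8 Mesodermal Progenitor markers, Prrx1 (0.56 ± 0.07) and Tbx5 (1.77 ± 0.22) were higher in Mesodermal Progenitor. Msx2 was lower (-1.87 ± 0.21), at 13.5, 17.3, 34.5 and 23.8 against 67.9, 100.01, 67.8 and 74.8 CPM, and had its highest mean of all populations in Chondrocyte. Prrx2, Twist1, Twist2, Msx1 and Hand2 did not pass, at 0.18, 0.15, 0.26, 0.17 and 0.46. Twist1, Twist2 and Hand2 did pass with no filter on low counts, Twist2 without F0_8 (0.37) and Prrx2 without F0_9 (0.29). The names are used here as labels.

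In cells thinned to 5000 UMIs each, a UMI of Sox9 was found in 40.0% of 495 Mesodermal Progenitor cells (35.7 to 44.5%) and 41.5% of 294 Chondrocyte cells (35.8 to 47.4%), and of Col2a1 in 43.6% and 46.3%. Sox9 and Twist1 were found together in 27.3% and 31.3%. CNS Neuron cells, which should lack most of these transcripts and measure free RNA in droplets, held Sox9 in 9.90%, Col2a1 in 6.41%, Prrx1 in 3.495% and Twist1 in 2.14% at the same depth. For Prrx1 the shares were 64.2% and 52.7%, and for Pax1 10.9% and 5.44% against 0.194% in CNS Neuron.

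Cartilage matrix genes were higher in Chondrocyte where they differed. Of 28 listed, 18 could be tested, 11 were lower in Mesodermal Progenitor and 0 higher, beside 21.6% and 21.9% of all genes. The median was -0.57. The count fell to 7 lower and 1 higher (Chst11) of 16 without F0_8, to 7 lower with equal numbers of cells, and to 6 lower with DESeq2 or without the replicate block. Over all genes, 1286 of 10673 were lower with DESeq2 and 2218 of 10013 without the block. Hapln1, the link protein that ties aggrecan to hyaluronan, was at 6.55, 3.90, 9.86 and 3.85 against 11.7, 50.004, 44.8 and 46.0 CPM (-2.66 ± 0.35). The small proteoglycan Fmod was at 4.36, 3.90, 3.79 and 0.70 against 28.7, 25.002, 21.8 and 18.4 CPM (-2.97 ± 0.34), and Epyc was at 4.36, 0, 0 and 0.35 against 29.7, 22.8, 0 and 1.15 CPM (-3.42 ± 0.62). Epyc was thus carried by the founders, and its call was lost with DESeq2 (-3.41). The collagen IX genes Col9a1 (-0.61), Col9a2 (-0.56) and Col9a3 (-0.62) and Col11a1 (-0.54) were also lower in Mesodermal Progenitor, of which Col9a2 and Col9a3 no longer passed without F0_8 (-0.47 and -0.48). The late cartilage genes Matn1, Matn3 and Comp were too low to test. Summed over the list, Chondrocyte was higher within each suspension, at 1385, 1308, 685 and 833 against 1013, 806, 581 and 677 CPM. The 2 F1 suspensions were low in both populations.

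Other matrix and adhesion genes differed more uniformly. Of 34 tested, 29 were lower in Mesodermal Progenitor and none higher, beside 21.6% and 21.9% of all genes. The median was -1.06. Sparc, a collagen-binding matrix protein, was at 274, 227, 257 and 190.4 against 796, 967, 911 and 862 CPM (-1.97 ± 0.09). Lum stood at 81.6, 99.7, 38.7 and 37.1 against 264, 242, 246 and 202 CPM (-2.03 ± 0.17) and Bgn at 34.0, 25.1, 23.9 and 29.8 against 124, 134, 183 and 149.6 CPM (-2.44 ± 0.15). These proteoglycans organise collagen fibrils. The chains of collagen VI (Col6a1, Col6a2 and Col6a3, -1.63, -1.81 and -1.05) and of the basement membrane collagen IV (Col4a1 and Col4a2, -1.61 and -1.45) were lower together, as were Postn (-1.11), Dcn (-1.25, and -0.80 without F0_9) and elastin (Eln, -1.69). The adhesion genes of condensing mesenchyme did not follow, since Ncam1 (-0.21 ± 0.16) and Cdh2 (0.00 ± 0.09) did not pass, nor did Cdh11 (-0.11), Fn1 (-0.21, but -0.29 and past the test without F1_mix) and Has2 (0.06). The type I collagen genes of bone and loose mesenchyme were lower too, with Col1a1 at 276, 204, 160.0 and 114 against 692, 854, 525 and 561 CPM (-1.90 ± 0.12) and Col1a2 at -1.23 ± 0.08. The osteoblast genes Sp7 and Alpl were too low to test. In Gut Mesenchyme/Amniotic Mesoderm the matrix and adhesion list summed to 4505 to 5061 CPM, between the 3664 to 4116 CPM of Mesodermal Progenitor and the 6615 to 7164 CPM of Chondrocyte.

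**Figure D3:**
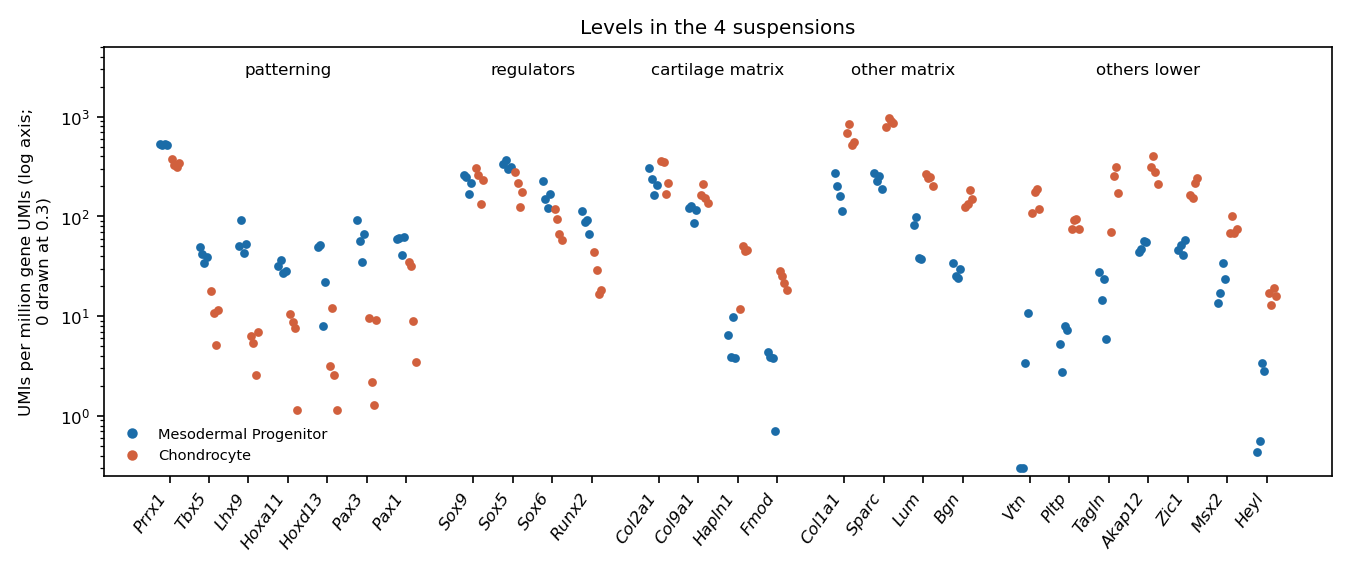
Level in CPM (log axis, values of 0 drawn at 0.3) of 26 named genes in Mesodermal Progenitor (blue) and Chondrocyte (orange), with 1 point for each of the 4 suspensions with the founders to the left. Sox9 and Col2a1 overlapped between the populations, while Sparc, Lum, Bgn, Vtn, Pltp and Zic1 did not. Of all 10673 tested genes, 2511 did not overlap with Mesodermal Progenitor higher and 1733 with it lower. Hoxd13 was lower in the F1 suspensions than in the founders within Mesodermal Progenitor (7.96 and 22.1 against 49.7 and 51.8).

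Limb and lateral plate transcription factors pointed the other way. Of 41 tested, 22 were higher in Mesodermal Progenitor and 5 lower, beside 21.9% and 21.6% of all genes. The median was 0.46. The 5 became 3 without F1_1, where 17 were higher. Lhx9, a LIM factor of the limb bud, was at 50.6, 93.0, 43.2 and 52.5 against 6.37, 5.44, 2.56 and 6.90 CPM (3.40 ± 0.24). Tbx5, which initiates the forelimb, was at 49.3, 41.8, 34.1 and 38.9 against 18.0, 10.9, 5.12 and 11.505 CPM, and the hindlimb factors Tbx4 (1.54) and Pitx1 (1.43) were higher likewise. Tbx4 moved to 3.15 without F0_8 and no longer passed without F0_9, F1_1 or F1_mix (1.05 to 1.38), and Pitx1 moved to 0.87 without F0_9. Sall3, a zinc finger factor of the limb, rested on 3 UMIs in Chondrocyte and had a ratio of 10.0 with a counting interval of 3.31 to 49.6. Prrx1, a general marker of limb mesenchyme, was at 538, 526, 527 and 516 against 381, 332, 309.8 and 344 CPM. The 5 that were lower were Msx2, Meis3 (-1.48), Zeb2 (-0.59), Snai1 (-0.51) and Tshz2 (-0.22). Zeb2 (-0.30) and Snai1 (-0.44) no longer passed without F1_1, nor did Tshz2 without F0_8, F0_9 or F1_mix. The list summed to 6521 to 6679 CPM in Mesodermal Progenitor, 4719 to 5253 CPM in Chondrocyte and 6759 to 7329 CPM in Gut Mesenchyme/Amniotic Mesoderm.

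Hox genes, whose order along the chromosome follows their domains along body and limb, divided by paralog group. Of 32 tested, 9 were higher and 2 lower, beside 21.9% and 21.6% of all genes. The lower ones became 4 without F0_9, 5 without F1_1 and 1 without F0_8 or F1_mix, and the higher ones stayed at 8 or 9. All 9 higher genes were among the 13 tested of groups 9 to 13, the posterior and distal limb genes, with a median of 1.69 there. Of 19 tested in groups 1 to 8, 0 were higher and 2 were lower (Hoxd1, -3.44, and Hoxb8, -0.87), with a median of -0.12. Hoxb8 no longer passed without F0_8 (-0.74) or F1_mix (-0.46). This division was made after the values were seen. Hoxa11 was at 31.9, 36.2, 27.3 and 28.4 against 10.6, 8.70, 7.68 and 1.15 CPM (2.07 ± 0.30), and Hoxd13, which acts in the hand plate, at 49.7, 51.8, 7.96 and 22.1 against 3.18, 11.96, 2.56 and 1.15 CPM (2.75 ± 0.33). Hoxa13 (2.41 ± 0.40), Hoxd12 (1.99 ± 0.47) and Hoxc11 (3.09 ± 0.48) were higher as well. Groups 9 to 13 summed to 595, 616, 402 and 494 against 339, 196, 110.1 and 163 CPM, with no overlap.

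Of 18 somite factors tested, 6 were higher and 6 lower, beside shares of 21.9% and 21.6% over all genes. Pax3, a factor of the dermomyotome, was at 92.5, 56.8, 34.9 and 66.2 against 9.55, 2.17, 1.28 and 9.20 CPM (3.42 ± 0.25). Pax7 was found in 1 UMI in Chondrocyte against 120 in Mesodermal Progenitor. Pax9 (1.12 ± 0.28) and Uncx (1.64), both of the sclerotome, were higher in Mesodermal Progenitor, but Pax9 no longer passed without F0_8 (0.81) or without the replicate block (1.05). Zic1 was lower at 46.3, 51.8, 41.3 and 58.1 against 163, 152, 216 and 244 CPM (-2.04 ± 0.12), and Zic2 (-1.69), Foxc1 (-1.54) and Foxc2 (-1.74 ± 0.18) were lower with it. Foxc1 and Foxc2 are forkhead factors of paraxial mesoderm.

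Of 16 tested factors of the facial mesenchyme, 9 were higher in Mesodermal Progenitor, beside 21.9% of all genes, and 6 were with DESeq2, without the replicate block (of 15 tested) and in thinned cells (of 13 tested). Over all genes, 1355 of 10673, 2212 of 10013 and 1322 of 7940 were higher under these alternatives. In this list 1 was lower (Six2, -0.63), a call that was lost without F0_8, F0_9 or F1_mix and stood at -0.96 without F1_1. Lhx8, a LIM factor, was at 11.8, 22.8, 14.0 and 17.2 against 2.12, 3.26, 0 and 0 CPM (3.43 ± 0.51). It had no overlap, as was so in this direction for 2511 of 10673 tested genes. Dlx5 (1.91 ± 0.29) was higher also, and Dlx2 was too low to test. Among regulators of chondrocyte differentiation, 5 of 10 tested were higher and 0 lower, beside 21.9% and 21.6% of all genes. The largest was Runx2, which drives hypertrophy and bone formation, at 114, 87.4, 91.4 and 67.2 against 43.5, 29.4, 16.6 and 18.4 CPM (1.67 ± 0.16). Of 8 tendon and joint genes, 1 was higher and 2 lower, near the shares of all genes, with Osr2 at 0.99 (not called without F0_8 or F1_mix) and Scx, the tendon progenitor factor, not called at -0.09 ± 0.17.

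**Figure D4:**
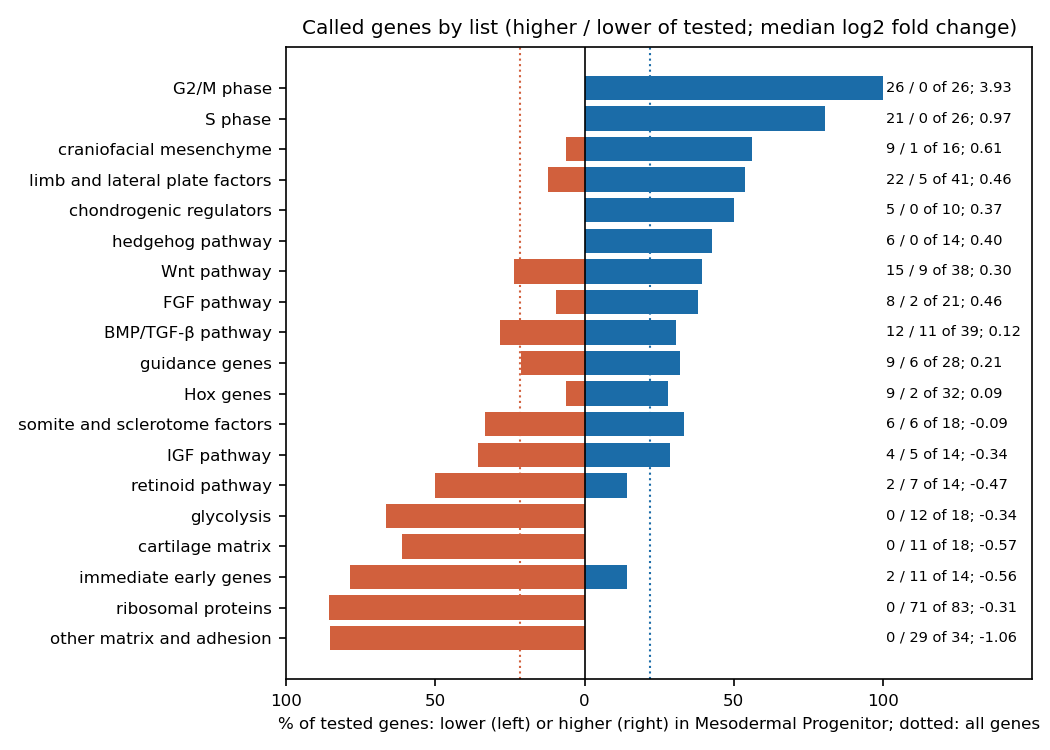
Percent of the tested genes of each of 19 lists that were called lower (orange, left) or higher (blue, right) in Mesodermal Progenitor, with counts and the median log2 fold change at the right; dotted lines mark the shares over all 10673 tested genes, 21.6% and 21.9%. The G2/M and S lists lie at the top with 26 and 21 of 26 higher, and other matrix and adhesion genes at the bottom with 29 of 34 lower.

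Signalling genes were read by role. Of 39 BMP and TGF-β genes, 12 were higher and 11 lower, shares not far above the 21.9% and 21.6% of all genes. Among the receptors, Bmpr1b was higher at 232, 277, 219 and 271 against 120.0, 118, 56.3 and 114 CPM (1.23 ± 0.12), together with Acvr2a (1.02), Tgfbr1 (0.79), Bmpr1a (0.47) and Bmpr2 (0.47). Tgfbr2 was lower (-0.63, from -0.98 to -0.49 with 1 suspension left out), a call lost without F0_8, F1_1 or F1_mix. Among the ligands, Bmp4 was lower at 53.7, 52.9, 57.2 and 60.9 against 86.0, 85.9, 79.4 and 84.0 CPM (-0.64 ± 0.12), as were Bmp7 (-0.68), Tgfb2 (-0.68), Inhba (-1.39 ± 0.29) and Tgfb1 (-2.17 ± 0.55). Bmp7 no longer passed without F1_1 (-0.46) or F1_mix (-0.58). Bmp2 did not pass (0.30 ± 0.29), with 26.6 and 20.6 CPM in the founders and 6.82 and 6.30 CPM in the F1 suspensions for Mesodermal Progenitor.

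In the hedgehog pathway 6 of 14 were higher and 0 lower, beside 21.9% and 21.6% of all genes. Without F1_1 there were 4 higher and 1 lower (Foxl1), and with DESeq2 only Gli2 and Gli3 passed, beside 1355 of 10673 genes higher with that tool. The 6 were the transcription factors Gli2 (1.002 ± 0.13) and Gli3, at 293, 279, 266 and 277 against 125, 146, 137 and 131 CPM (0.99 ± 0.08), with Disp1, Sufu, Smo and Boc, of which Sufu, Smo and Boc each lost the call without at least 1 suspension. The target genes of the pathway, Ptch1 (0.15 ± 0.13) and Gli1 (0.09 ± 0.27), did not pass. In the Wnt pathway 15 of 38 were higher and 9 lower, beside 21.9% and 21.6% of all genes, so that the share of lower ones was near that of all genes. Wnt5a, which guides limb outgrowth, was at 132, 147, 106 and 124 against 54.1, 70.7, 29.4 and 46.0 CPM (1.29 ± 0.13), and the agonist Rspo2 (1.77 ± 0.20) and the nuclear factor Lef1 (1.57) were higher. Wnt6 was lower at 1.31, 1.11, 1.90 and 0.70 against 20.2, 7.61, 19.2 and 14.96 CPM (-3.65 ± 0.43), as were Wnt4 (-1.81 ± 0.35) and the antagonists Sfrp1 (-1.41) and Dkk3 (-1.68). The target Axin2 (-0.04) did not pass.

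Of 21 FGF genes, 8 were higher and 2 lower, beside 21.9% and 21.6% of all genes, and without F0_8 12 of 18 were higher. Fgf10, the mesenchymal signal of the limb bud, was at 16.1, 28.4, 28.4 and 28.4 against 0, 9.78, 12.8 and 3.45 CPM (1.96 ± 0.37), and its feedback partners Il17rd (1.27 ± 0.17) and Etv5 (1.04 ± 0.28) were higher. Etv5 did not pass with DESeq2 (1.06). Of 14 retinoid genes, 7 were lower and 2 higher, beside 21.6% and 21.9% of all genes. Of the 2 higher, Cyp26b1 alone passed without F0_9, F1_1 or F1_mix. Aldh1a2, which makes retinoic acid, was at 41.0, 20.6, 41.3 and 50.4 against 67.9, 148, 57.6 and 113 CPM (-1.34 ± 0.26), with Rdh10 (-1.35 ± 0.18) on the same side. Cyp26b1, which degrades retinoic acid, was higher at 46.7, 52.3, 28.1 and 27.7 against 7.43, 17.4, 2.56 and 4.60 CPM (2.22 ± 0.26). Of 14 IGF genes 4 were higher and 5 lower, beside 21.9% and 21.6% of all genes. Igfbp2 (-1.66 ± 0.11), Igfbp5 (-1.08 ± 0.09) and Igfbp4 (-0.77 ± 0.09) were lower, the receptor Igf1r (0.56) was higher, and the ligands Igf1 (-0.26 ± 0.14) and Igf2 (-0.25 ± 0.17) did not pass. Igf1 passed without F1_1 (-0.49, edgeR adjusted p = 0.0019) and with equal numbers of cells (-0.44). Of 8 Notch genes 0 were higher and 2 lower, a share of lower ones near that of all genes, with a median of -0.16. Without F0_9 or F1_1 1 was lower, and without F0_8 3 were. With 1 suspension left out the median ran from -0.32 to -0.046. Heyl, a target of the pathway, was at 0.436, 0.557, 3.41 and 2.80 against 17.0, 13.05, 19.2 and 16.1 CPM (-3.18 ± 0.44). Of 28 guidance genes 9 were higher and 6 lower, near the shares of 21.9% and 21.6% over all genes, among them Ntn1 (1.26 ± 0.20) and Epha7 (-1.15 ± 0.11).

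The 12 genes that were lowest in Mesodermal Progenitor relative to Chondrocyte at a mean of 50 CPM or more held no gene of the cartilage matrix list, and 1 of the visceral mesenchyme list (Tagln). Vtn, which encodes the adhesive glycoprotein vitronectin, was at 0, 0, 3.41 and 10.9 against 108, 177, 187 and 119.6 CPM (-5.24 ± 0.41). Pltp, a phospholipid transfer protein, was at 5.24, 2.78, 7.96 and 7.35 against 75.4, 91.3, 94.7 and 74.8 CPM (-3.84 ± 0.21). Tagln, an actin-binding protein of smooth muscle, was at 27.9, 14.5, 23.5 and 5.95 against 70.1, 255, 309.8 and 174 CPM (-3.50 ± 0.33), and Rgs5, known from pericytes, at 2.62, 5.57, 9.48 and 13.7 against 45.6, 53.3, 132 and 51.8 CPM (-3.18 ± 0.28). The kinase anchor Akap12 was at 44.5, 46.8, 56.5 and 56.0 against 315, 405, 278 and 211 CPM (-2.58 ± 0.15). The rest were Apod (-3.72), Itih5 (-3.10), Prdm6 (-2.82), Zfp804b (-2.71), Aebp1 (-2.57), Pdlim2 (-2.56) and Anxa3 (-2.48), and the next by the same rule was Bgn. In Gut Mesenchyme/Amniotic Mesoderm, Vtn (2.37 CPM) and Pltp (9.74 CPM) were near the level of Mesodermal Progenitor.

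Markers of other cell types were read beside these. In the visceral mesenchyme list, 10 of 11 genes could be tested, 6 were lower in Mesodermal Progenitor and 1 higher, beside 21.6% and 21.9% of all genes. None was higher with DESeq2, without the block, under 5% mitochondrial UMIs, with equal numbers of cells or without F0_9. The list summed to 187 to 243 CPM in Mesodermal Progenitor, 327 to 755 CPM in Chondrocyte and 199 to 459 CPM in Gut Mesenchyme/Amniotic Mesoderm. Besides Tagln, the lower genes included Gata6 (-2.38 ± 0.24), Tcf21 (-2.25 ± 0.28) and Acta2 (-1.84 ± 0.48). Acta2 moved to -2.87 without F0_8 and no longer passed without F1_1 (-1.42). The defining gene Foxf1 did not pass (0.09 ± 0.24). Skeletal muscle markers summed to 16.6 to 26.2 against 32.9 to 55.05 CPM, and Actc1 had 3 UMIs against 25, while Myf5 and Myod1 were too low to test. Endothelial markers summed to 15.03 to 18.6 against 27.2 to 52.9 CPM, macrophage markers to at most 3.90 and 5.75 CPM, and epithelial ones to 9.60 to 33.3 against 24.4 to 96.0 CPM, with Krt8 at -2.996 ± 0.37 and Cdh1 too low to test. Erythroid markers were close, at 124 to 138 against 123 to 142 CPM, and neuronal markers overlapped, at 135 to 209 against 124 to 331 CPM. Neural progenitor markers did not overlap, at 35.1 to 62.4 against 65.2 to 116 CPM, with 2 of 9 tested and Nes lower (-0.83). Markers of crest and Schwann cells summed to 9.46 to 31.9 against 25.3 to 46.7 CPM, with 2 of 7 tested, 1 of them lower, and Sox10 too low to test. The part of other cells in the differences was not tested.

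Metabolic and housekeeping groups moved less but widely, beside shares of 21.6% lower and 21.9% higher over all genes. Of 83 ribosomal protein genes, 71 were lower in Mesodermal Progenitor and 0 higher, with a median of -0.31, and they took 156896 to 166696 against 187581 to 200523 CPM. These genes have many near-identical pseudogenes that can share their reads. Of 18 glycolysis genes, 12 were lower and 0 higher, among them Aldoa at 206, 237, 255 and 241 against 278, 366, 508 and 422 CPM (-0.79 ± 0.09) and Gpi1 (-0.70 ± 0.09). Of 14 immediate early and stress genes, 11 were lower and 2 higher, with Jun at 324, 350.2, 189.9 and 293 against 502, 525, 342 and 466 CPM (-0.74 ± 0.07) and Fos at -0.51 ± 0.11, while Hsp90aa1 was higher (0.38). Such genes respond to tissue dissociation. Of 13 mitochondrial genes, 1 was higher and 5 lower, beside 21.9% and 21.6% of all genes, and the called differences lay between mt-Cytb (-0.38) and mt-Nd1 (0.16), which no longer passed without F0_9 or F1_mix (0.14 and 0.12).

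The length of genes moved with the direction of the difference. Of genes under 10 kb, 9.90% were higher and 40.8% lower, with a median of -0.30, and of those over 100 kb, 37.4% were higher and 13.7% lower, with a median of 0.26. Genes under 10 kb took 41.4 to 42.4% of the UMIs of Mesodermal Progenitor and 47.0 to 48.8% of those of Chondrocyte. The split was nearly the same without the genes of the S and G2/M lists (9.52% higher and 41.0% lower under 10 kb). Lengths came from GRCm38.p6 and were at hand for 99.3% of tested genes. The part of gene length in the differences was not tested.

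EGFP did not enter the clustering, because the authors removed its counts first. It was at 1074, 959, 2417 and 945 CPM in Mesodermal Progenitor and 1422, 1262, 3366 and 1239 CPM in Chondrocyte, so it was lower in Mesodermal Progenitor in 4 of 4 suspensions. The ratio was 0.755, 0.760, 0.718 and 0.762, a narrow range beside the level of F1_1, which was more than 2 times that of each other suspension in both populations. The fitted difference was -0.48 ± 0.05 log2 units (edgeR adjusted p = 5.3e-06). The fit uses library sizes rescaled by TMM, and without that scaling the mean of the 4 log2 ratios in CPM was -0.42. The exact sign-flip permutation test over these 4 ratios gave p = 0.13, the smallest that 4 pairs allow. Without the replicate block the difference was -0.50 with an edgeR adjusted p of 0.257.

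Counted per cell, the order was the opposite. Mesodermal Progenitor cells held a mean of 18.8, 17.9, 49.8 and 19.1 EGFP UMIs and Chondrocyte cells 15.2, 14.2, 46.9 and 15.4, with 17494, 18711, 20609 and 20261 against 10705, 11218, 13949 and 12417 gene UMIs per cell. EGFP was thus a larger share of fewer transcripts in Chondrocyte. After thinning to 5000 UMIs per cell the fitted difference remained at -0.54.

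**Figure D5:**
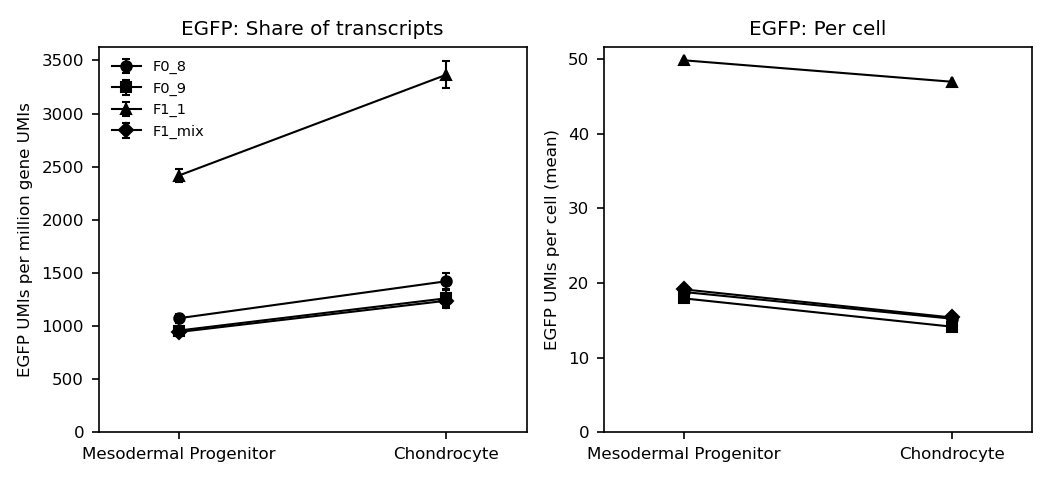
EGFP in Mesodermal Progenitor and Chondrocyte of each suspension, in CPM with 95% exact Poisson intervals (left) and as mean UMIs per cell (right); lines join the 2 populations of a suspension. In CPM each line rises towards Chondrocyte (for F1_1 from 2417 to 3366), and per cell each line falls (for F1_1 from 49.8 to 46.9).

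Whether the difference between the populations changed with the generation was tested as an interaction, with 2 suspensions on each side. Of 10673 genes, 0 passed (0.0%) with edgeR and 0 with DESeq2, and the smallest edgeR adjusted p was 0.0635. With no filter on low counts 99 genes passed, and with equal numbers of cells 8. At an unadjusted p under 0.05 there were 761 genes with edgeR and 110 with DESeq2. Leaving out 1 suspension gave 43, 19, 68 and 59 calls for F0_8, F0_9, F1_1 and F1_mix, fits in which a generation is a single suspension assumed to vary like the others. With so few suspensions a change with generation was hard to detect, and a lack of calls does not show that the difference was equal in founders and F1 embryos.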

How the data were processed

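The authors made single-cell suspensions of E11.5 embryos, captured them as 1 pooled droplet library and counted UMIs on mouse GRCm38 (mm10 per the labels) with the EGFP sequence added, for which the matrices name Cell Ranger 7.2.0. The deposited matrices, 1 per suspension, hold whole-number UMI counts, neither normalised nor corrected for ambient RNA. Cell names and suspensions were taken from the deposited cell table, whose other 18 columns were not used. The authors had removed doublets with DoubletFinder and EGFP counts before clustering. No further doublet call was made, and cells at 5% mitochondrial UMIs or more were left out only as an alternative. No barcode was shared between suspensions within the compared cells.

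UMIs were summed per suspension and population (8 sums of 781151 to 2856745). Genes were tested with edgeR 4.0.16 (R 4.3.3) by the quasi-likelihood test with TMM scaling, filterByExpr, the suspension as a block and Benjamini-Hochberg adjustment, called at 0.05. The SE is the log2 fold change divided by the square root of F. Both populations of a suspension came from the same embryo or mixture, which makes the design paired, and their deviations correlated at 0.0710 to 0.190. Since a suspension was prepared once, p-values measure the spread between these 4 suspensions. DESeq2 1.42.0, RLE factors, no filter, no block, equal cell numbers, thinning and leaving out each suspension were alternatives. Intervals cover counting error only. Cells were thinned and intervals computed in Python 3.11.15 with scipy 1.17.1. The scripts were tested on simulated data.

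The members and all 33 gene lists were chosen with earlier results of these data known. Named genes were the 12 with the largest fold change in each direction among called genes at a mean of at least 50 CPM in the higher population, plus the first 2 of each list and up to 4 called ones of it. Some list members are counted but not reported individually here. Other list genes were named after their values were seen, and the ribosomal list was corrected to leave out kinases after values were seen. Gene lengths, promoter windows and sequences came from RefSeq GRCm38.p6 by symbol, the same build as the files.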

Additional observations from a re-analysis of the deposited data

Results flagged for a closer look

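In 153 sets of 4 values, the log2 ratios of named genes by suspension (Mesodermal Progenitor over Chondrocyte) and the Chondrocyte share of cells, a search was made for a single suspension apart from the other 3, by the 95% limit of Dixon's test for the gap over the range. Chance alone flags about 1 in 20, and 11 were found, 4 of them in F1_1. EGFP in F1_1 stood at -0.48, while the other 3 suspensions lay between -0.40 and -0.39. Gadd45g in F1_1 was at -0.12, Igf1 in F1_1 at 0.62 and Col9a2 in F1_1 at 0.35. In F0_9, Nes was at -0.35, Dcn at -2.44 and Tgfbr2 at 0.62. In F1_mix, Fmod was at -4.72, Hoxa11 at 4.62 and Ptch1 at 0.79. Aebp1 was at -1.75 in F0_8.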

How the results depend on the processing

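The 4638 calls were within 1.5 times of the main count under 9 alternatives, from 3790 to 4937, and fell to 2641 with DESeq2 (1355 higher and 1286 lower) and to 2674 in cells thinned to 5000 UMIs (1322 higher and 1352 lower). Leaving out 1 suspension gave 3790 to 3976 calls, 1927 to 2021 of them higher and 1863 to 1955 lower. Without the replicate block there were 4430 calls, and the EGFP difference of -0.50 no longer passed (edgeR adjusted p = 0.257). With no filter on low counts the EGFP difference is not reported here, and under the remaining alternatives it passed, from -0.47 to -0.54. The interaction with generation gave 99 calls with no filter on low counts, 8 with equal numbers of cells and 19 to 68 without 1 suspension, and 0 under the other alternatives run. The causes were not tested, except that a generation left with 1 suspension has no spread of its own.

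Of 145 called genes named in the text, EGFP aside, 132 had a value under all 11 alternatives, and 108 of these kept their call in each. The other 13 were too low to test under 1 to 4 alternatives, and 11 of them kept their call where tested. None of the 145 changed direction where tested. The calls lost under at least 1 alternative were those of Col2a1, Epyc, Matn4, Pax9, Osr2, Disp1, Sufu, Etv5, Mcm3, Gadd45g, mt-Nd1, Acta2, Bmp7, Boc, Col6a3, Col9a2, Col9a3, Hoxb8, Pitx1, Six2, Smo, Snai1, Tbx4, Tgfbr2, Tshz2 and Zeb2. Leaving out a single suspension was enough for Col2a1 (-0.20 without F0_9), Matn4 (-0.73 without F0_8), Pax9 (0.81 without F0_8), Osr2 (1.03 without F0_8 and 0.52 without F1_mix), Mcm3 (0.34 without F0_8 and 0.30 without F0_9), Acta2 (-1.42 without F1_1, and -2.87, still called, without F0_8), Sufu (0.36 to 0.46 without F0_8, F1_1 or F1_mix), Gadd45g (-0.63 to -0.60 without F0_8, F0_9 or F1_mix) mt-Nd1 (0.14 without F0_9 and 0.12 without F1_mix), Bmp7 (-0.46 without F1_1 and -0.58 without F1_mix), Boc (0.34 without F1_1), Col9a2 (-0.47 without F0_8), Col9a3 (-0.48 without F0_8 and -0.43 without F0_9), Hoxb8, Six2, Smo (0.32 without F0_9), Snai1, Tbx4, Tgfbr2, Tshz2 and Zeb2. Calls were gained by Chst11 (0.78 without F0_8), Fn1 (-0.29 without F1_mix), Foxl1 (-2.15 without F1_1, -1.44 with no filter and -1.52 under 5% mitochondrial UMIs), Prrx2 (0.29 without F0_9), Igf1 (-0.49 without F1_1 and -0.44 with equal numbers of cells), Mcm2 (-0.30 without the block and -0.40 with equal numbers of cells), Twist2 (0.37 without F0_8 and 0.31 with no filter), Twist1 (0.20 with no filter) and Hand2 (0.51 with no filter). Among lists, DESeq2 gave 15 higher and 3 lower limb factors, 6 and 0 facial factors, 5 and 1 FGF genes, 1 and 5 retinoid genes and 1 and 7 immediate early and stress genes. Beside these, 1355 and 1286 of all 10673 genes were higher and lower with that tool. In thinned cells 15 limb factors of 35 were higher and 3 lower, and 5 Hox genes of 19 higher and 2 lower. Beside these, 1322 and 1352 of all 7940 genes tested in thinned cells were higher and lower. Without the block 6 Hox genes were higher and 0 lower. Of the cell cycle exit genes 3 were higher and 4 lower without F1_1. The direction of some genes that did not pass turned. With equal numbers of cells Sox9 was at 0.0042, Scx at 0.023, Bmp2 at -0.040, Axin2 at 0.034 and Has2 at -0.010. In thinned cells Cdh2 was at 0.075, Gli1 at -0.18, Foxf1 at -0.12, Msx1 at -0.044, Has2 at -0.11 and Mcm6 at 0.0092. Cdh2 was at 0.050 with no filter and 0.0040 under 5% mitochondrial UMIs, and Axin2 at 0.016 and 0.0015. With 1 suspension left out, Acan ranged from -0.45 to 0.17, Scx from -0.29 to 0.15, Ncam1 from -0.41 to 0.067, Cdh2 from -0.066 to 0.051, Ptch1 from -0.050 to 0.22, Gli1 from -0.044 to 0.19, Foxf1 from -0.23 to 0.34 Msx1 from -0.36 to 0.61, Axin2 from -0.24 to 0.14, Has2 from -0.27 to 0.48 and Mcm6 from -0.16 to 0.075. Depth limits the genes of few UMIs and all those not tested.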
